A study of Mus musculus with 4 samples.

Results

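Complement components and receptors were followed through the immune cells of the neonatal mouse heart. The set holds 9 of the 32285 genes counted, taken by symbol: the C1q chains C1qa, C1qb and C1qc, the components C3, C4b, Cfb and Cfp, and the receptors C3ar1 and C5ar1. Live cells carrying CD45, the surface marker of immune cells, were sorted from digested C57BL/6 hearts without their atria. PD1 is an inhibitory receptor of lymphocytes, encoded by Pdcd1, and the mice were PD1 -/- (KO) or PD1 +/- (Het), so that every group carried the deletion and none was wild type. They had a myocardial infarction (MI) or a sham operation at postnatal day 2, and hearts were taken 7 days later. The groups KO_MI, Het_MI, KO_sham and Het_sham hold 1 library each, and how many hearts went into a library is not given in the sources used here. No difference below was therefore tested, and brackets give 95% intervals that cover counting error only.

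Complement is a cascade of plasma proteins that marks targets for uptake and draws in phagocytes. The classical pathway begins when C1q, assembled from the products of C1qa, C1qb and C1qc, binds a target, and C4 and C2 then form the enzyme that cleaves C3. In the alternative pathway factor B, encoded by Cfb, forms the C3-cleaving enzyme that properdin, encoded by Cfp, stabilises. Fragments released from C3 and C5 act on the receptors encoded by C3ar1 and C5ar1. Tissue macrophages are a known source of C1q, while the liver makes most circulating C3, C4 and factor B.

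The C1q chains are neighbours in the genome, and the start regions of the genes with a RefSeq promoter entry give the sequence context of the genes that were level (C1qb, C1qc) and of one that was not (C3). In GENCODE M21 on GRCm38, C1qb (chr4:136880129-136886187), C1qc (chr4:136889804-136893065) and C1qa (chr4:136895917-136898803) lie on the minus strand, with 3616 bases between C1qb and C1qc and 2851 between C1qc and C1qa. C4b (chr17:34728380-34743882), Cfb (chr17:34856374-34862518) and C3 (chr17:57203970-57228136) share chromosome 17. Cfp lies at chrX:20925454-20931555, C3ar1 at chr6:122847138-122856161 and C5ar1 at chr7:16246743-16259540, all on the minus strand. C4a (chr17:34809092-34823464), a near-identical copy of C4b, sits 65209 bases from it, so that reads of C4b may be split with C4a and its counts are uncertain. RefSeq promoter windows of 300 bases (build GRCm38.p6, 250 before and 50 after the start) were found for 6 of the 9 genes and searched on both strands for 4 motifs: the interferon-gamma element TTCNNNGAA (GAS), the interferon-stimulated response element by its usual letters (ISRE), the PU.1 core GAGGAA and the MARE core TGCTGA. Printed here, 5′ to 3′ on the minus strand, are the bases before both the RefSeq start and the GENCODE gene of C1qb (chr4:136886201-136886450), C1qc (chr4:136893066-136893164) and C3 (chr17:57228137-57228386), with motif matches in capitals.
C1qb: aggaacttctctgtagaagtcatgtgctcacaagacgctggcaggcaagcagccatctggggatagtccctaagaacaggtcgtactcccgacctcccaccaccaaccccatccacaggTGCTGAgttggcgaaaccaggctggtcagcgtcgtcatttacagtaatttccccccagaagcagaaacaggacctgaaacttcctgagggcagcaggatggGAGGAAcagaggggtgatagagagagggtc
C1qc: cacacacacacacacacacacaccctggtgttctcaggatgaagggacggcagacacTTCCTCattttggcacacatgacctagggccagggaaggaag
C3: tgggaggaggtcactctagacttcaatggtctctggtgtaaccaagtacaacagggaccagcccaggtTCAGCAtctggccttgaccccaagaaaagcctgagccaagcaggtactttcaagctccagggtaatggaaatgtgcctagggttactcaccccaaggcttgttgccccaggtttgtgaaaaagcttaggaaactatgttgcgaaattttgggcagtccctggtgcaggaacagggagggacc
C1qb held the MARE core 131 bases and the PU.1 core 30 bases before its RefSeq start, C1qc a PU.1 core on the opposite strand 193 bases before it, and C3 a MARE core on the opposite strand 182 bases before it. None of the 6 windows, those of C1qb, C1qc, C3, Cfp, C3ar1 and C5ar1, held a GAS or ISRE match. C1qa, Cfb and C4b had no window and were not searched. Among 32851 promoter windows of the same length, 8.30% held the GAS letters, 3.44% the ISRE letters, 28.3% the PU.1 core and 19.5% the MARE core. A match or its absence in such a window describes letters only.

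Cells with at least 500 UMIs (unique molecular identifiers, counted RNA molecules), 200 genes and at most 10% mitochondrial UMIs numbered 7104, 5074, 6407 and 5376 in KO_MI, Het_MI, KO_sham and Het_sham, with medians of 6559 to 8632 UMIs and 4 to 13 barcodes shared by any pair of libraries. Cells were assigned to types by 16 marker lists that hold no complement gene, and those with markers of 2 lineages (24.2% to 30.9% of cells, highest in KO_MI) were left out. This gave 2182, 1647, 1884 and 1049 macrophages in the same order, in which all 12 macrophage markers were counted and the median macrophage showed 75.0% to 83.3% of them. Levels are given as CPM, that is, a gene's UMIs for every 1000000 UMIs summed over the cells of that type and library. Pdcd1 stood at 27.1 [20.5 to 35.1] CPM in T cells of KO_MI, 13.8 [8.16 to 21.8] in Het_MI, 4.06 [1.11 to 10.4] in KO_sham and 4.59 [2.80 to 7.09] in Het_sham. Because the deleted stretch is not named, 3' tags check no genotype here, and each group is that of the library label. The KO_MI library also stood apart in sex-linked RNA. Macrophage Xist was at 1153, 271, 456 and 299.7 CPM and 4 Y-linked genes summed to 0, 128, 93.9 and 87.2 CPM in that order, so sex and group cannot be told apart. Values from macrophages with an Xist UMI and no Y-linked UMI are given for C3, Cfb, C4b, C5ar1 and the C1q sum. They are not given for C3ar1 or for Cfp, which lies on the X chromosome.

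Macrophages held the highest level of 6 of the 9 genes, C1qa, C1qb, C1qc, Cfp, C3ar1 and C4b, when the 8 types with at least 20 cells in each library were ordered by their mean. For C4b the macrophage range over libraries (1.73 to 33.4 CPM) overlapped that of the next type, fibroblasts (0 to 6.85 CPM). For Cfp the macrophage range (131 to 161 CPM) overlapped that of classical monocytes (123 to 156 CPM). Classical monocytes held the highest mean of C3 and Cfb, and neutrophils that of C5ar1. For Cfb the classical monocyte range (26.8 to 129 CPM) overlapped that of non-classical monocytes (17.8 to 69.1 CPM). The C1q chains showed the widest gap. Their summed macrophage level was 11383, 10580, 10555 and 11685 CPM in KO_MI, Het_MI, KO_sham and Het_sham, while the next type, non-classical monocytes, had 1030, 429, 325 and 223 CPM, and the ranges of these types over libraries lay apart. Below macrophages, the ranges of neighbouring types overlapped for the C1q sum. Outside these 8 types, the 42 type 2 dendritic cells of all libraries together held 594 [529 to 665] CPM. KO_MI gave 272 of their 303 C1q UMIs, from 16 cells.

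**Figure D1:**
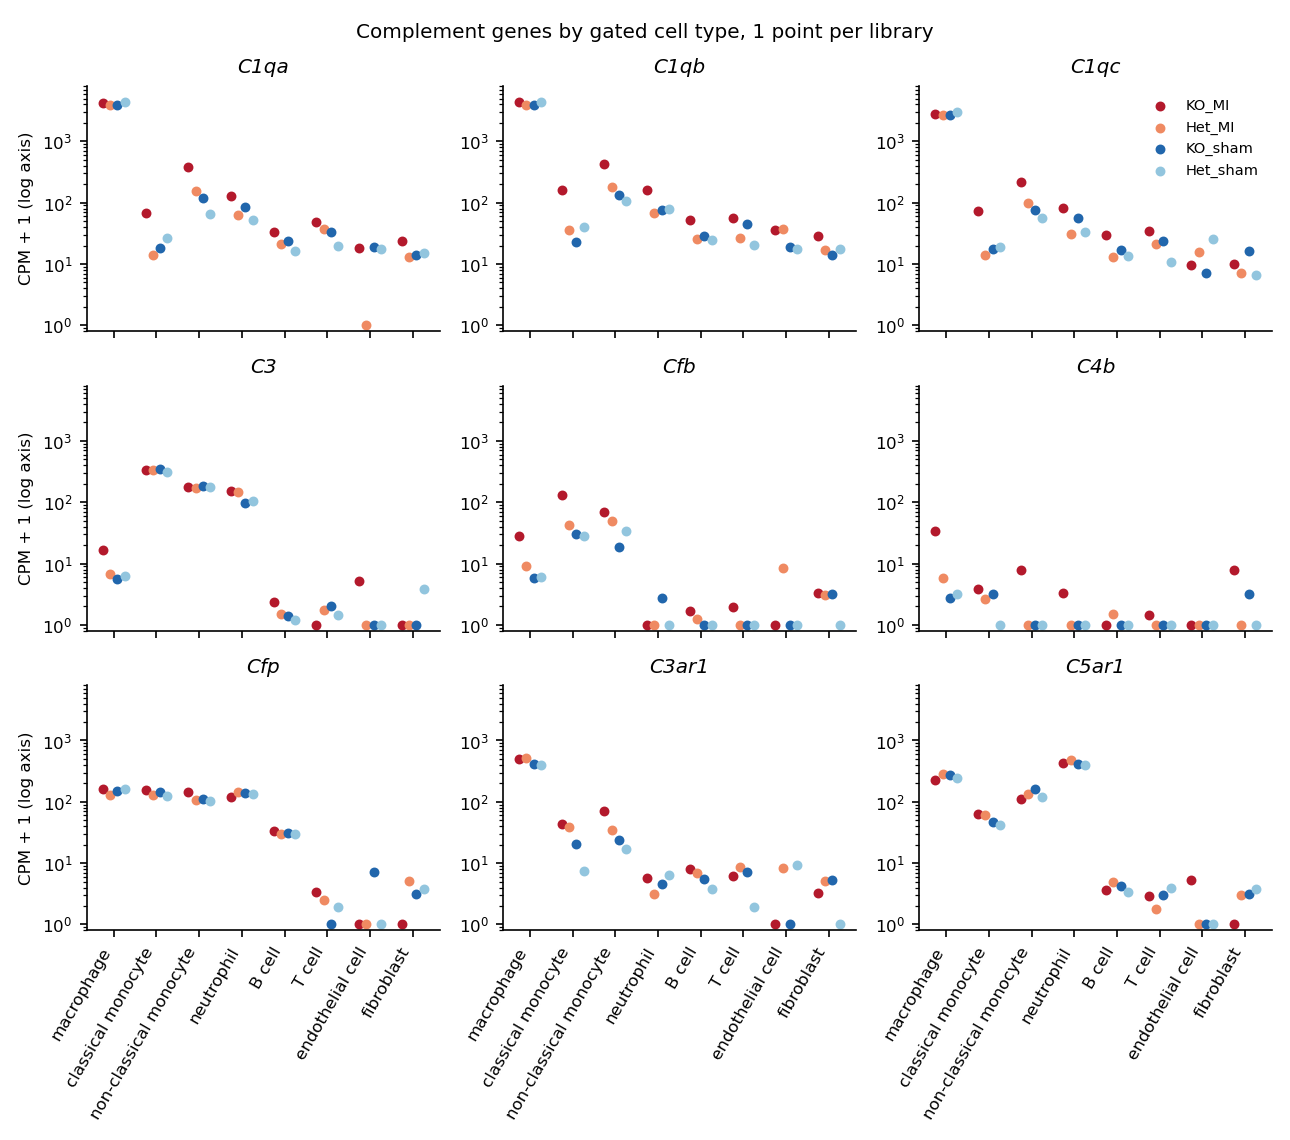
Level of each gene (CPM plus 1, log axis) in the 8 gated cell types with at least 20 cells in every library, 1 point per library, KO_MI leftmost. C1q chains stand far above other types in macrophages, C3 is high in monocytes and neutrophils, and Cfp is shared by the 4 myeloid types.

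C1q, the recognition unit of the classical pathway, was near the same level in macrophages of all 4 libraries. C1qa was at 4245, 3949, 3906 and 4309 CPM in KO_MI, Het_MI, KO_sham and Het_sham. C1qb was at 4380, 3948, 3920 and 4358 CPM, and C1qc at 2757, 2684, 2730 and 3017 CPM in the same order. Each chain was higher in KO_MI than in Het_MI and lower in KO_sham than in Het_sham, by at most 1.11-fold in either direction. For the sum the log2 ratio was 0.11 [0.10 to 0.11] for KO_MI over Het_MI and −0.15 [−0.16 to −0.14] for KO_sham over Het_sham. Relative to all genes measured in macrophages, whose median log2 ratio for KO_MI over Het_MI was −0.11, the first value would be larger, at 0.23 with TMM factors and 0.22 with median-of-ratios factors. The chains kept a near-constant proportion, C1qa giving 36.9% to 37.3% of C1q UMIs, C1qb 37.1% to 38.5% and C1qc 24.2% to 25.9%. At least 1 C1qb UMI was found in 99.1%, 98.6%, 99.6% and 98.7% of macrophages, with 38.8, 42.8, 42.3 and 46.2 UMIs per such cell. Median macrophage depth was 7818, 9636, 9786 and 9748 UMIs in the same order. Unless cells were thinned to 2000 UMIs, shares of cells with a UMI and UMIs per cell depend on depth.

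Outside macrophages C1q UMIs were few but not evenly spread. As a share of the macrophage level of the same library, the C1q sum in B cells, which are not a known source of C1q, was 0.978%, 0.541%, 0.625% and 0.435% in KO_MI, Het_MI, KO_sham and Het_sham, at median depths of 3114 to 3991 UMIs. In the 7 other types with enough cells in each library, the KO_MI value was the highest in all 7. Non-classical monocytes reached 9.05%, 4.06%, 3.08% and 1.91%, and classical monocytes 2.61%, 0.580%, 0.524% and 0.709%. In non-classical monocytes C1qb was at 432, 178, 133 and 104 CPM, and in neutrophils at 158, 66.6, 74.4 and 77.2 CPM. Among classical monocytes KO_MI stood apart, where the summed level was 298, 61.3, 55.3 and 82.8 CPM. C1qb reached 159 CPM there in KO_MI against 35.5 CPM in Het_MI, but 1 cell held 26.0% of its 223 UMIs in KO_MI and 1 cell 59.1% of its 22 UMIs in Het_MI. Thinned to 2000 UMIs per cell, 11.9% of KO_MI classical monocytes and 10.0% of KO_MI B cells held a C1qb UMI, but the shares were 12.9% and 4.39% for C1qa and 8.1% and 5.97% for C1qc. Free RNA and macrophage doublets were not tested as sources of these UMIs.

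**Figure D2:**
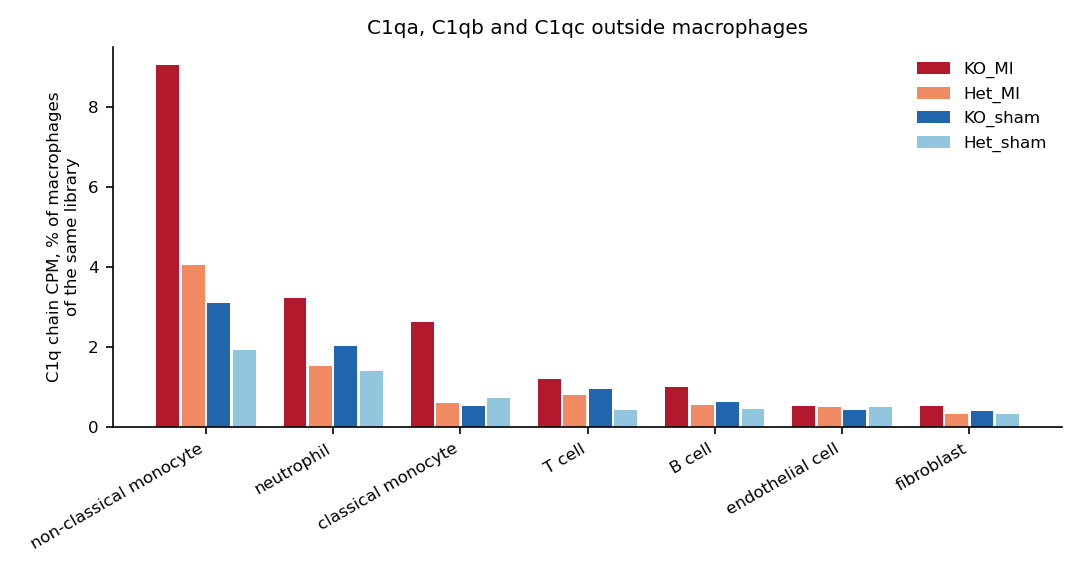
Summed C1qa, C1qb and C1qc CPM in 7 cell types as a percentage of macrophages of the same library, 1 bar per library. Every type is highest in KO_MI, from 9.05% in non-classical monocytes to 0.522% in fibroblasts.

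Among the other genes, C3, Cfb and C4b differed between macrophages of the libraries, and a difference of at least 1.5-fold was used as the mark, since nothing could be tested. For KO_MI over Het_MI, 3 of the 9 genes were higher by that fold (C3, Cfb and C4b) and 0 lower, where 3.93% of the 12068 genes with at least 30 UMIs were higher and 4.42% lower. For KO_MI over KO_sham the same 3 were higher and 0 lower, against 6.00% and 4.81% of all genes. For Het_MI over Het_sham 2 were higher, Cfb and C4b, and 0 lower, against 6.00% and 5.59%. For KO_sham over Het_sham 0 of the 9 passed in either direction, against 3.10% higher and 4.56% lower. These comparisons share libraries and are not independent. The median log2 ratio of the 9 genes was 0.15, 0.16, 0.15 and −0.14 in this order, against −0.11, −0.12, −0.07 and −0.07 over all genes measured.

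**Figure D3:**
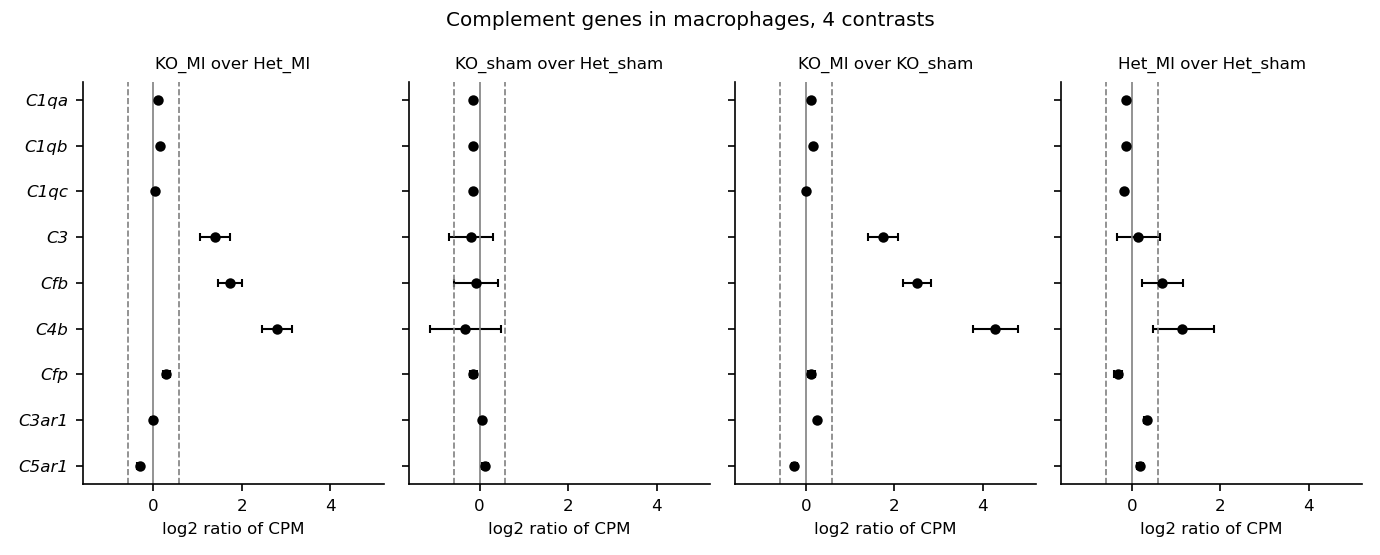
Log2 ratio of CPM in macrophages with 95% counting intervals for the 9 genes in the 4 comparisons, with dashed lines at 1.5-fold. C3, Cfb and C4b lie beyond the line in both comparisons of KO_MI, and the other 6 genes lie within it in all 4.

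C3, the component on which all pathways converge, was counted at 15.4 [13.7 to 17.2] CPM in KO_MI macrophages, 5.85 [4.78 to 7.10] in Het_MI, 4.60 [3.71 to 5.63] in KO_sham and 5.29 [4.01 to 6.84] in Het_sham. Only KO_MI was high, and the other 3 intervals overlapped. The log2 ratio was 1.39 [1.06 to 1.73] for KO_MI over Het_MI, 1.74 [1.40 to 2.09] for KO_MI over KO_sham and 0.15 [−0.33 to 0.64] for Het_MI over Het_sham. A UMI was found in 7.65%, 4.25%, 3.88% and 3.34% of macrophages, against 0.596%, 0.285%, 0.193% and 0.110% of B cells. Among macrophages with an Xist UMI and no Y-linked UMI, KO_MI over Het_MI was 2.28 and KO_MI over KO_sham 1.72. In Het_sham 24.1% of the C3 UMIs came from 1 cell, and without the top cell of each library Het_MI over Het_sham was 0.47. With the stricter gate it was 1.12 and KO_sham over Het_sham was 0.94, so the order of the 3 lower libraries depends on the gate. Classical monocytes, with the highest C3, were level across libraries at 332, 336, 350.2 and 315 CPM, as were non-classical monocytes at 175, 171, 184 and 176 CPM. Neutrophils had 153, 148, 97.4 and 102 CPM, with both MI libraries above both sham libraries, at a log2 ratio of 0.66 [0.12 to 1.20] for KO_MI over KO_sham and 0.53 [0.01 to 1.07] for Het_MI over Het_sham.

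Cfb, the factor B gene, was at 27.2 [24.9 to 29.7] CPM in macrophages of KO_MI, 8.24 [6.95 to 9.69] in Het_MI, 4.79 [3.89 to 5.85] in KO_sham and 5.11 [3.86 to 6.63] in Het_sham. KO_MI was highest, Het_MI next, and the sham libraries overlapped. KO_MI over Het_MI gave 1.72 [1.46 to 2.0], KO_MI over KO_sham 2.51 [2.19 to 2.83] and Het_MI over Het_sham 0.69 [0.24 to 1.16], and the last was 0.03 after thinning cells to 2000 UMIs. Among cells with Xist and no Y-linked UMI the first was 1.69. A Cfb UMI was found in 13.3%, 6.25%, 4.09% and 4.19% of macrophages, against 0.298%, 0.143%, 0% and 0% of B cells, where a count of 0 allows up to 0.290% and 0.329%. In classical monocytes, too, KO_MI was highest, at 129 [111 to 149] CPM. Het_MI, KO_sham and Het_sham had 42.0 [27.4 to 61.5], 29.3 [19.3 to 42.6] and 26.8 [18.5 to 37.6] CPM, with overlapping intervals. The log2 ratio was 1.62 [1.02 to 2.27] for KO_MI over Het_MI. In non-classical monocytes Cfb was at 69.1, 49.2, 17.8 and 32.5 CPM, with a ratio of 0.49 [−0.01 to 1.01] for KO_MI over Het_MI, but 1 cell held 41.3% of the Het_MI UMIs. Over libraries the Cfb ranges of macrophages and of both monocyte types overlapped.

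C4b, which encodes C4 of the classical pathway, differed most among the 9 genes. Macrophages held 33.4 [30.9 to 36.1] CPM in KO_MI, 4.83 [3.86 to 5.97] in Het_MI, 1.73 [1.20 to 2.41] in KO_sham and 2.19 [1.40 to 3.26] in Het_sham, from 640, 85, 35 and 24 UMIs. Both MI libraries exceeded both sham libraries, and KO_MI stood far above Het_MI. The log2 ratio was 2.79 [2.46 to 3.14] for KO_MI over Het_MI, 4.27 [3.78 to 4.81] for KO_MI over KO_sham and 1.14 [0.47 to 1.86] for Het_MI over Het_sham. Positive cells were more frequent and held more of it on average: 8.16%, 3.28%, 1.38% and 1.81% of macrophages had a C4b UMI, with means of 3.596, 1.57, 1.35 and 1.26 UMIs per such cell. The top 10 cells held 28.75%, 43.5%, 54.3% and 62.5% of the C4b UMIs of their library. Among cells with Xist and no Y-linked UMI, KO_MI over Het_MI was 2.45 and KO_MI over KO_sham 4.09. The paralog C4a had 6, 7, 4 and 2 UMIs. Fibroblasts, a known source of C4 in other tissues, held 3, 0, 1 and 0 C4b UMIs here, and the 8 fibroblast markers summed to 21.2, 17.2, 12.7 and 13.6 CPM in macrophages. That sum was higher in macrophages with a C4b UMI than in those without in each library, at 38.0 against 19.2 CPM in KO_MI, 29.6 against 16.7 in Het_MI, 26.9 against 12.4 in KO_sham and 21.8 against 13.4 in Het_sham. The part of fibroblast RNA in the C4b values was not tested.

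For all 3 of these genes, macrophages with a UMI also carried more RNA of the 10 classical monocyte markers than those without. In KO_MI that list summed to 1782 against 1071 CPM for C3, to 1437 against 1082 CPM for Cfb and to 2231 against 1016 CPM for C4b. In macrophages as a whole it stood at 1143, 1081, 923 and 979 CPM in KO_MI, Het_MI, KO_sham and Het_sham. The 12 macrophage markers were lower in macrophages with a C3 or Cfb UMI than without in each library. In KO_MI they summed to 6848 against 8926 CPM for C3. For C4b they were at 8506 against 8739 CPM in KO_MI. In the other libraries they were higher with a C4b UMI, at 10654 against 9706 CPM in Het_MI. Only 6, 4 and 7 of the 10 monocyte markers had a UMI in C4b-positive macrophages of Het_MI, KO_sham and Het_sham. The part of these lists in the results was not tested.

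Cfp, the properdin gene, was shared by myeloid types and varied little. Macrophages had 159.8, 131, 147 and 161 CPM in KO_MI, Het_MI, KO_sham and Het_sham, and their range overlapped that of classical monocytes (156, 126, 144 and 123 CPM), which overlapped that of neutrophils (119, 142, 138 and 133 CPM), which in turn overlapped that of non-classical monocytes (142, 106, 108 and 104 CPM). Het_MI was the lowest of the macrophage libraries, with a log2 ratio of 0.29 [0.21 to 0.37] for KO_MI over Het_MI and −0.31 [−0.40 to −0.22] for Het_MI over Het_sham. KO_MI over KO_sham was 0.12 [0.05 to 0.20], and −0.15 without macrophages with at least 2 UMIs of Marco, Arg1 or Saa3. Without those cells KO_MI over Het_MI was 0.05. B cells held 29.1 to 32.7 CPM, apart from both neighbours in the order. The 42 type 2 dendritic cells of all libraries together held 310 [263 to 362] CPM, too few for a value per library.

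C3ar1, the receptor of the C3a fragment, was a macrophage gene that was higher in both MI libraries. It stood at 503 [493 to 513], 509 [499 to 520], 419 [410 to 428] and 404 [392 to 416] CPM in KO_MI, Het_MI, KO_sham and Het_sham macrophages. The log2 ratio was 0.26 [0.22 to 0.31] for KO_MI over KO_sham and 0.33 [0.28 to 0.39] for Het_MI over Het_sham, short of 1.5-fold in both. For KO_MI over Het_MI it was −0.02 [−0.06 to 0.02] and turned to 0.11 with TMM factors. Non-classical monocytes followed at 69.6, 34.2, 23.1 and 15.9 CPM and classical monocytes at 42.1, 37.1, 19.5 and 6.50 CPM, with overlapping ranges and both MI libraries above both sham libraries. Free RNA and macrophage doublets were not tested as sources of these monocyte UMIs. Basophils, counted in too few cells in Het_MI, had 283, 264 and 329 CPM in KO_MI, KO_sham and Het_sham.

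C5ar1, the receptor of the C5a fragment, ranked neutrophils over macrophages over non-classical monocytes over classical monocytes, with every neighbouring pair apart in its range over libraries. Neutrophils had 421, 484, 416 and 391 CPM in KO_MI, Het_MI, KO_sham and Het_sham. Macrophages had 226 [219 to 233], 279 [272 to 287], 270 [263 to 277] and 247 [238 to 256] CPM, with KO_MI the lowest. The log2 ratio was −0.31 [−0.37 to −0.25] for KO_MI over Het_MI and 0.18 [0.11 to 0.25] for Het_MI over Het_sham. Among macrophages with an Xist UMI and no Y-linked UMI these were −0.38 and 0.14. Non-classical monocytes had 111, 133, 159 and 119 CPM and classical monocytes 62.1, 59.7, 46.6 and 41.4 CPM, while basophils had 112, 81.9 and 92.9 CPM in KO_MI, KO_sham and Het_sham.

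**Figure D4:**
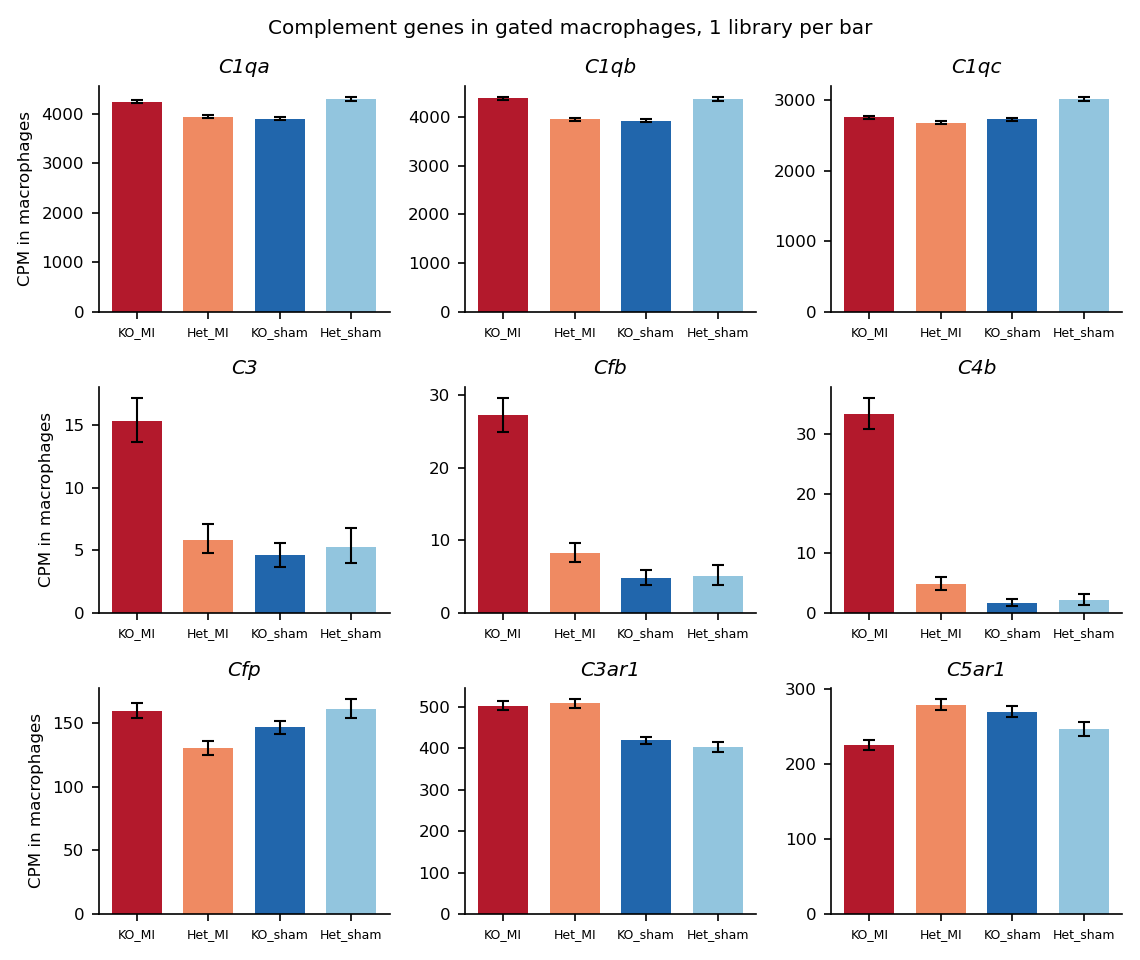
CPM of each gene in macrophages of the 4 libraries with 95% Poisson intervals, axes from 0. C3, Cfb and C4b are highest in KO_MI, C3ar1 is higher in both MI libraries, and C1q chains and Cfp stay within 1.24-fold in the 4 comparisons.

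Macrophages were then split by 1 other gene at a time, taking cells with at least 2 of its UMIs against cells with 0. The genes were Lyve1, Spp1, Cxcl9, Top2a, Cd207, Ifit3 and H2-Ab1, and Marco, Arg1 and Saa3 were added after their values had been seen. Cells with Cxcl9, a chemokine induced by interferon-gamma, numbered 41 in KO_MI and 1 in each other library. In KO_MI they held 129.7 against 12.5 CPM of C3 and 196 against 22.4 CPM of Cfb, and C4b was at 57.6 against 32.5 CPM. Cells with H2-Ab1, a chain of MHC class II, made up 13.4%, 5.22%, 2.55% and 1.14% of macrophages in KO_MI, Het_MI, KO_sham and Het_sham. In KO_MI they had 34.0 against 11.9 CPM of C3, 65.8 against 19.8 of Cfb, 18.6 against 36.7 of C4b and 173 against 237 of C5ar1. Without all macrophages holding a Cxcl9 UMI, KO_MI over Het_MI was 1.09 for C3 and 1.46 for Cfb.

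C4b was highest in other macrophages. Cells with Lyve1, a hyaluronan receptor found on resident macrophages, had 129 against 15.0 CPM of C4b in KO_MI and 9.96 against 2.80 CPM in Het_MI. They also had more Cfp in every library, at 264 against 138 CPM in KO_MI, 188 against 109.6 in Het_MI, 192 against 125 in KO_sham and 225 against 135 in Het_sham. In KO_MI, C4b stood at 377 against 19.5 CPM in 54 cells with the scavenger receptor gene Marco, at 288 against 13.9 CPM in 110 cells with the arginase gene Arg1 and at 563 against 18.7 CPM in 34 cells with the acute-phase gene Saa3. Together, 134 macrophages (6.14%) with at least 2 UMIs of Marco, Arg1 or Saa3 held 63.1% of the KO_MI C4b UMIs, where 41 such cells held 14.1% in Het_MI. C3 and Cfb were also higher in these cells in KO_MI, at 46.8 against 12.3 CPM for C3 (27.2% of its UMIs) and 46.8 against 25.3 CPM for Cfb (15.4%). In cells with Arg1 in Het_MI, C3 stood at 38.8 against 5.23 CPM and Cfb at 33.3 against 7.70 CPM. In the other macrophages C4b was at 13.5 CPM in KO_MI, 4.30 in Het_MI, 1.76 in KO_sham and 2.06 in Het_sham, so KO_MI over Het_MI was 1.66 without them.

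Dividing macrophages, those with Top2a, a DNA topoisomerase of cycling cells, had less of several genes and, in 3 libraries, more Cfp. Their C1q sum was 10449 against 11616 CPM in KO_MI, 9625 against 10899 in Het_MI, 9597 against 10983 in KO_sham and 10527 against 12148 in Het_sham. C3 and Cfb were lower in them in each library, but from few UMIs, and some counting intervals took in either sign. The log2 ratio was −0.82 [−1.75 to 0.004] for C3 in Het_MI (14 UMIs) and −0.98 [−2.20 to 0.07] for Cfb in Het_sham (9 UMIs). C3ar1 was also lower in all 4, at 459 against 518 CPM in KO_MI and 405 against 539 in Het_MI. Cfp was at 153 against 156 CPM in KO_MI, 154 against 124 in Het_MI, 165 against 138 in KO_sham and 192 against 148 in Het_sham. Macrophages with Spp1, the osteopontin gene, made up 22.5%, 17.8%, 6.95% and 6.20% of macrophages in the same order. They had 23.0 against 11.8 CPM of C3 in KO_MI and 10.5 against 3.66 in Het_MI. In the sham libraries C3 was lower in them, at 3.35 against 4.80 CPM in KO_sham and 1.05 against 5.81 in Het_sham. The sham values rest on 6 and 1 C3 UMIs in the cells with Spp1. Cells with Cd207, the langerin gene, numbered 25 in KO_MI and 21 in KO_sham. Their C1q sum was 11100.1 against 11371 CPM in KO_MI and 13436 against 10530.1 CPM in KO_sham, and C5ar1 was lower in them in both, at 164 against 226 CPM in KO_MI and 143 against 271 CPM in KO_sham. With Ifit3, a gene induced by type I interferon, Cfb was at 66.0 against 25.5 CPM in 62 KO_MI cells. In KO_MI, 64 cells had both C3 and Cfb (38.3% of C3 cells and 22.0% of Cfb cells), 52 both Cfb and C4b (17.9% of Cfb cells and 29.2% of C4b cells) and 30 both C3 and C4b (18.0% of C3 cells and 16.9% of C4b cells).

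**Figure D5:**
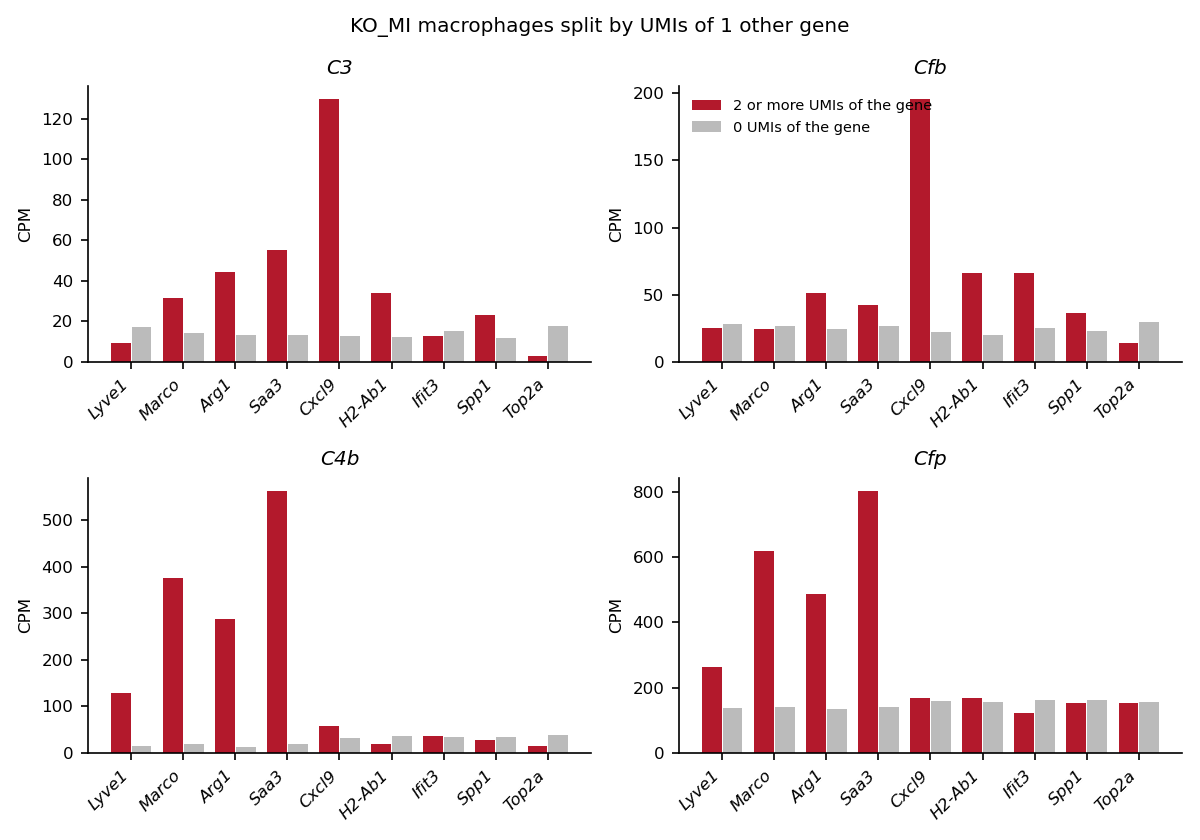
CPM of C3, Cfb, C4b and Cfp in KO_MI macrophages with at least 2 UMIs of the gene on the x axis (red) and with 0 (grey). C3 and Cfb peak in cells with Cxcl9, while C4b and Cfp peak in cells with Saa3, Marco or Arg1.

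Of 41 other complement genes in the files, 17 had at least 30 UMIs in macrophages of KO_MI and Het_MI together, with a median log2 ratio of 0.08. In KO_MI 5 of the 17 were higher by at least 1.5-fold and 0 lower, where 3.93% of all genes measured were higher and 4.42% lower. Of the 5, 3 encode parts of the cascade or its control. C2, the partner of C4, had 19.4 against 11.1 CPM (0.80 [0.55 to 1.06]), Cd59a, which blocks the membrane attack complex, 7.68 against 3.75 CPM (1.03 [0.61 to 1.48]), and C6, a part of that complex, 25 against 8 UMIs (1.52 [0.33 to 2.88]). The other two encode receptors of C3 fragments. Vsig4 had 44.4 against 23.3 CPM (0.93 [0.76 to 1.10]) and Itgax 18.4 against 11.5 CPM (0.68 [0.43 to 0.94]). For KO_MI over KO_sham 7 of 16 were higher and 0 lower, against 6.00% and 4.81% of all genes. For Het_MI over Het_sham 1 of 16 was higher (Itgax) and 0 lower, against 6.00% and 5.59%. For KO_sham over Het_sham 0 were higher and 1 of 16 lower (Itgax), against 3.10% and 4.56%. Fcna, a ficolin that starts the lectin pathway, was at 123, 84.3, 72.6 and 67.4 CPM, and Colec12, a collectin, at 65.1, 65.9, 57.9 and 53.8 CPM. Among regulators Cr1l had 70.4, 71.0, 71.1 and 75.0 CPM. Calr and Lrp1, which take part in C1q uptake, were at 493, 517, 566 and 582 CPM and at 168, 194, 201 and 207 CPM, and the integrin gene Itgam at 135, 128, 108 and 115 CPM. Of the list, 9 genes had 0 UMIs in macrophages of all 4 libraries.

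Genes with the most similar pattern were ranked by Pearson r of log2(CPM + 10) over 45 sums of a cell type in a library, among 6965 genes. The sums share libraries and cell types, so r is a description. The C1q sum was closest to Ms4a7 (0.97), Pf4 (0.96), Ccl12 (0.93), P2ry12 (0.93) and Mrc1 (0.93), of which Ms4a7, Pf4 and Mrc1 were markers that defined the macrophage class. C3 was closest to Klra2 (0.98), Sirpb1c (0.98) and F10 (0.97), and Cfb to Apoc1 (0.91), Apoc2 (0.91) and Clec4a3 (0.88). Cfp was closest to Spi1 (0.96), the gene of PU.1, Atp6v0b (0.95) and Pirb (0.94). C3ar1 was closest to Cebpa (0.87), Npl (0.85) and Slc7a8 (0.84), and C5ar1 to C5ar2 (0.95), the gene of the second C5a receptor, Ninj1 (0.92) and Igsf6 (0.91). C4b was closest to Retnla (0.80), Gpnmb (0.78) and Mmp12 (0.68), the lowest values of the set. It stood at 33.4 CPM in KO_MI macrophages and at most 6.85 CPM in the other sums, under the 10 CPM added. Its r therefore depends largely on the KO_MI macrophage sum.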

How the data were processed

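Libraries were made with the 10x Genomics 3' chemistry, per the labels' protocols. The values deposited are whole-number UMI counts that were not normalized. Cell Ranger 6.1.1, Seurat 4 and the builds mm10 and GRCm38 are listed per the submitters' processing notes. The version is 4.0.0 per the file headers, and no source used here gives the settings.

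The libraries KO_MI, Het_MI, KO_sham and Het_sham held 72002420, 60461796, 66587021 and 52701847 UMIs, which set the counting intervals. Every cell past the filters was scored by the share of each marker list with a UMI. The leading type needed at least 3 markers and a lead of 20 percentage points, and a cell with over 30% of the markers of another lineage was left out, a limit set after seeing the data. Of macrophages, 60 to 155 per library lay within 10 points inside the lead. Scrublet's method (Scanpy 1.11.5) called 6, 1, 0 and 139 cells automatically and so did not work in most libraries, and removal at the expected rate is an alternative.

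UMIs were summed per type and library and scaled to CPM. Intervals are exact Poisson for levels, Clopper-Pearson for shares and conditional binomial for ratios, at 95%. A gene was measured with at least 30 UMIs over both libraries. A count of 0 was given the limit of 3 counts, for shares too, in place of the interval's bound. TMM and median-of-ratios factors came from edgeR 4.0.16 (R 4.3.3). Ratio and interval code was tested on simulated data. Named genes were the 9 members, the most counted genes of each role in the pathway list (up to 3, with at least 30 UMIs), and those past 1.5-fold for KO_MI over Het_MI. Members were named in another type where they reached 100 CPM in 1 library, and further values there were chosen after they were seen. One gene of the pathway list is not reported here. The members, gene lists and splits were chosen with earlier results of these data known. Alternatives changed the UMI and mitochondrial limits, doublet removal, the gate, scaling, cell weights, depth, the top cell and the sex-linked make-up.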

Additional observations from a re-analysis of the deposited data

Results flagged for a closer look

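Within macrophages, 5 genes and the C1q sum differed in opposite directions in paired comparisons of the libraries, with counting intervals off 0 on both sides. With 1 library per group the differences were not tested. For C1qa, KO_MI over KO_sham was 0.12 and Het_MI over Het_sham −0.13, a difference of 0.25 on the log2 scale. For C1qb these were 0.16 and −0.14, a difference of 0.30, and for the C1q sum 0.11 and −0.14, a difference of 0.25. C1qc was flat in the KO pair, but KO_MI over Het_MI was 0.04 and KO_sham over Het_sham −0.14, a difference of 0.18. For Cfp the MI over sham ratios were 0.12 in KO and −0.31 in Het, a difference of 0.43. C5ar1 went the other way, at −0.26 in KO and 0.18 in Het, a difference of −0.44. With TMM or median-of-ratios factors each of these pairs kept opposite signs. Without macrophages with at least 2 UMIs of Marco, Arg1 or Saa3, however, Cfp was at −0.15 for KO_MI over KO_sham, so its opposite signs were lost. All lie under 1.5-fold in each comparison.

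In classical monocytes, KO_MI over Het_MI and KO_sham over Het_sham differed for C1qb (2.16 and −0.85, a difference of 3.01) and for the C1q sum (2.28 and −0.58, a difference of 2.86). These rest on 85 cells in Het_MI and on 22 C1qb UMIs, 59.1% of them in 1 cell, and the share of macrophage doublets among them was not tested.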

How the results depend on the processing

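In macrophages, the counts of genes past 1.5-fold for KO_MI over Het_MI and KO_MI over KO_sham stayed at 3 under all 16 alternatives. For KO_sham over Het_sham the count was 1 with the stricter gate (C3, at 0.94) and 0 otherwise. For Het_MI over Het_sham it was 0 after thinning to 2000 UMIs and 1 in cells with Xist and no Y-linked UMI, where C4b had too few UMIs in both, and 2 or 3 otherwise, where C3 passed with Scrublet scores removed, the stricter gate, Leiden clusters or equal weights. The number of genes highest in macrophages was 5 with equal weights and 6 under the other 7 alternatives run for it. The C1q ratio of KO_MI over Het_MI (0.105) was 0.116 with Scrublet scores removed, 0.121 thinned, 0.0954 in Xist cells, 0.119 with equal weights, 0.228 with TMM and 0.218 with median-of-ratios factors. Under alternatives chosen after seeing the data it was 0.0833 with cells of 2 lineages kept and 0.0918 without macrophages with a Cxcl9 UMI.

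Of 496 recomputed ratios of single genes, 383 stayed within the counting interval of the value reported, 113 did not, and 0 that were past 1.5-fold changed sign. For KO_MI over Het_MI the range was 0.86 (equal weights) to 2.28 (Xist cells) for C3, 1.46 to 1.85 for Cfb and 1.66 to 3.15 for C4b, the lowest without cells holding Marco, Arg1 or Saa3. The causes of these shifts were not tested. No paired analysis was possible because each group holds 1 library. Depth limits C4b, with 24 and 35 UMIs in the sham libraries.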
